A study of Rattus norvegicus with 12 samples.

Results

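The hearts of rats given β-aminoisobutyric acid (BAIBA) after an infarct were set against the hearts of rats that ran on a treadmill after an infarct, by comparing the left ventricular transcriptomes of the 3 BAIBA rats with those of the 3 exercised rats (HFE). These 6 rats were chosen by their group labels out of the 12 rats of the series, and all 34700 genes of the count table were available for the comparison. BAIBA is a metabolite that contracting skeletal muscle releases, so the comparison sets an exercise-derived molecule against exercise itself. Heart failure (HF) was induced in male Sprague-Dawley rats by tying off the left anterior descending coronary artery at an age of 8 weeks, and this infarct was shared by the HFE, BAIBA and untreated HF groups. The HFE rats ran for 60 min a day on 5 days a week for 8 weeks, the BAIBA rats received 75 mg/kg/day by gavage for 8 weeks, the HF rats were sedentary, and the Sham rats had surgery without ligation. All hearts date from 12 weeks after surgery.

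The methods list the exercised and the BAIBA rats under separate sets of experiments, describe gavage for the BAIBA rats and not for the HFE rats, and name the tissue as the anterior wall of the left ventricle, with the area around the infarct for BAIBA. The set of experiments, the gavage and the exact site of the tissue therefore cannot be told apart from the treatment. The sample labels number the 3 samples of a group without saying more on their source, so the p-values measure the spread between these samples.

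Background helps in reading the genes. An infarcted ventricle is known to shift toward a fetal pattern of expression, in which the slow β-myosin heavy chain gene Myh7 is raised relative to the fast α-myosin heavy chain gene Myh6, and genes of wall stress such as Nppb are turned on. Endothelial cells, fibroblasts, macrophages and the mesothelial covering of the heart all contribute RNA to a piece of ventricular wall. In such bulk samples fewer cells of a type and less RNA per cell cannot be told apart.

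The 6 libraries held between 14812541 and 16661303 counts on genes. Mitochondrially encoded genes took between 30.4% and 36.0% of the counts. Defining ventricular genes were abundant in all 6 libraries, with 3688 to 5587 FPKM (fragments scaled to gene length and library size) for Myl2 and 5827 to 7009 FPKM for Tnnt2, whereas the atrial gene Myl7 was between 0.147 and 15.9 FPKM. BAIBA rat 1 and HFE rat 3 each stood apart from their groups in several gene lists. Over 23 macrophage and monocyte genes, summed levels were 181 to 259 CPM (counts scaled to library size) in the HFE rats. They were 283 and 360 CPM in BAIBA rats 2 and 3. BAIBA rat 1 had 1318 CPM. It was also the highest BAIBA rat over fibroblast genes, at 3951 CPM against 2905 and 2896 CPM, over lymphocyte genes, at 113 CPM against 65.4 and 61.1 CPM, and over mesothelial genes. HFE rat 3 had 3262 CPM over 26 immediate early genes, against 527 and 661 CPM in the other HFE rats and 578 to 672 CPM in the BAIBA rats. It was also the highest HFE rat over matrix proteases and their inhibitors (799 CPM against 558 and 545 CPM), coagulation and fibrinolysis genes (870 CPM against 519 and 560 CPM) and clock genes (1279 CPM against 723 and 848 CPM). Results that rest on these libraries are given below with and without them.

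**Figure D1:**
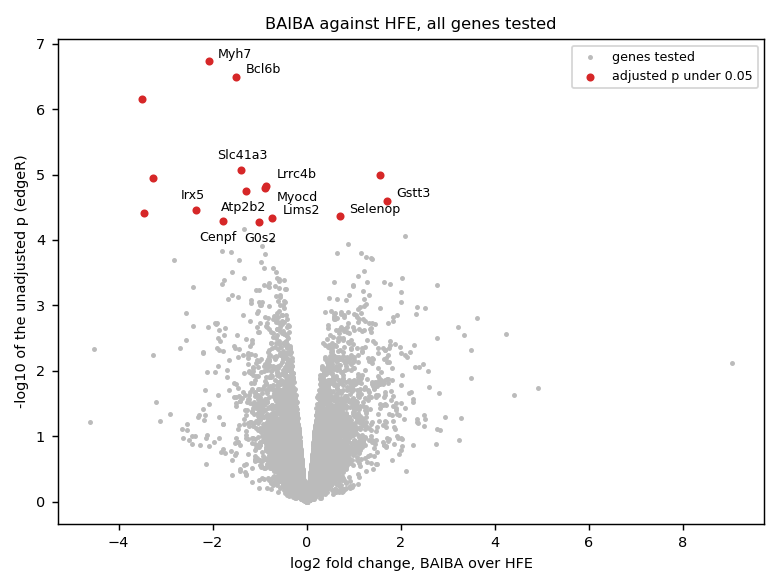
Each point is 1 of the 14844 genes tested, with the log2 fold change of BAIBA over HFE on the x axis and -log10 of the unadjusted p of edgeR's quasi-likelihood test on the y axis. The 16 genes past an adjusted p of 0.05 are marked, 13 of them on the left, where BAIBA was lower, and the 12 with a gene symbol are named.

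In edgeR's quasi-likelihood test, 12 of the 14844 genes tested (0.0808%) were differentially expressed genes (DEGs), that is, past 0.05 after Benjamini-Hochberg adjustment and beyond a log2 fold change of 1 in either direction. Of these, 2 were higher (0.0135%) and 10 were lower (0.0674%) in the BAIBA group, and 8 had a gene symbol, while 4 were genes assembled by the authors without a name. The adjusted p alone was passed by 16 genes (0.108%), 3 higher (0.0202%) and 13 lower (0.0876%), of which 12 had a symbol. With the replicate number as a block there were 32 DEGs, 17 higher and 15 lower, which held 11 of the 12 above, and 50 genes past the adjusted p, 25 in each direction. The number of DEGs was also sensitive to single rats. It was 3 without HFE rat 1, 4 without HFE rat 2, 13 without HFE rat 3, 20 without BAIBA rat 1, 14 without BAIBA rat 2 and 6 without BAIBA rat 3. Of the 16 genes past the adjusted p, 3 still passed without HFE rat 1, 3 without HFE rat 2, 5 without HFE rat 3, 13 without BAIBA rat 1, 4 without BAIBA rat 2 and 3 without BAIBA rat 3.

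DESeq2 passed more genes, 326 of 23294 at the adjusted p (164 higher and 162 lower), which held all 16. Msln, which is described below, passed the filter on low counts only through the BAIBA rats and is left out here. Of the other genes described below with an edgeR adjusted p above 0.05, those that passed in DESeq2 were, on the lower side, Myh7b, Actc1, Fhl2, Nppb, Rcan1, Irx3, Srf, Gata4, Hcn4, Gja1, Asph, Casq2, Col4a2, Top2a, Nr1d1, Arntl, Npas2, Dusp5, Etfb, Hspb1, Hspb6 and Hspa5, and on the higher side, Mir208b, Gpx3, Hmox1, Fkbp5, Ddit4, Cd163, Mrc1, Lyve1, Aldh1a2, Timp3, Igf1 and Angptl4.

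At an unadjusted p under 0.05 there were 695 genes higher (4.68%) and 725 lower (4.88%) with BAIBA, 1420 in all (9.57%). With library-size scaling alone this split was 918 against 474. In 2301 genes (15.5%) no HFE rat lay within the range of the BAIBA rats or the reverse, 1059 higher (7.13%) and 1242 lower (8.37%). These shares over all genes stand beside the counts within the gene lists below. The median log2 fold change over all genes was 0.00, and 50.1% of genes were above 0. For comparison, neither intervention differed from untreated HF at an adjusted p under 0.05 (0 of 14938 genes for HFE and 0 of 15039 genes for BAIBA in edgeR), with 1139 genes (7.62%) and 834 genes (5.55%) at an unadjusted p under 0.05.

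On the first principal component, which held 34.8% of the variance, the HFE rats scored 0.711, -27.5 and -3.44 and the BAIBA rats 24.0, -14.8 and 21.0. On the second (22.8%) the HFE rats scored 10.6, -0.244 and 22.8 and the BAIBA rats -13.2, -22.4 and 2.41. The groups overlapped on both components.

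The 16 genes were not all set apart from the same side. The HFE rats lay above the range of the HF rats for 5 of them, below it for 1 and overlapped it for 10. The BAIBA rats lay below the HF range for 11, above it for 2 and overlapped it for 3. Over all genes tested, 14.4% did not overlap between HFE and HF, and 11.4% did not overlap between BAIBA and HF. The 16 genes were chosen by these same HFE and BAIBA values, which favours positions outside the HF range. Against the Sham rats, the HFE rats were above the range for 6, below it for 3 and overlapped it for 7. The BAIBA rats were below the Sham range for 11, above it for 3 and overlapped it for 2. The shares over all genes against Sham were not computed for the interventions.

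**Figure D2:**
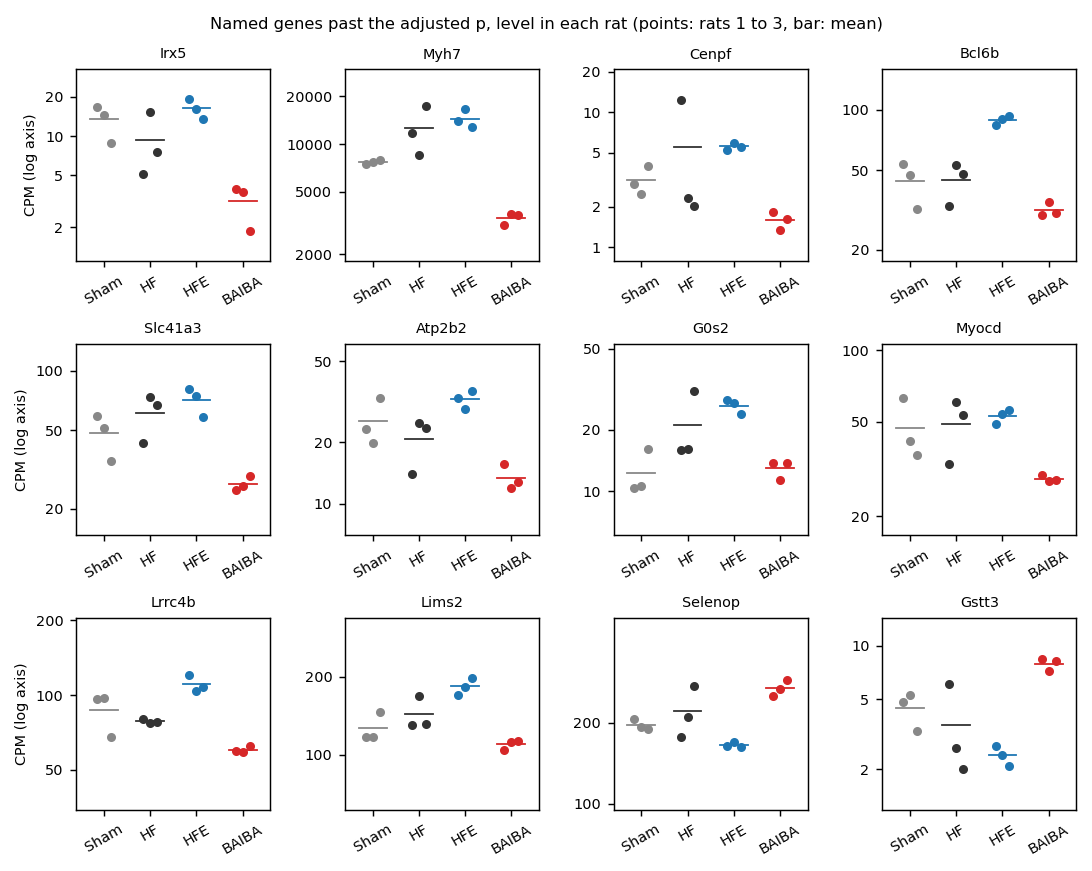
Levels in CPM on a log axis of the 12 named genes past the adjusted p, with 1 point for each of 3 rats and a bar at the group mean (Sham, HF, HFE, BAIBA). Every HFE rat lies on one side of every BAIBA rat in each panel, and Gstt3 and Selenop are the ones with BAIBA above.

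Among the contractile genes, Myh7 had the smallest p of all genes tested. Its level was 13923, 16587 and 12841 CPM in the HFE rats, against 3093, 3597 and 3553 CPM in the BAIBA rats. The lowest HFE rat was far above the highest BAIBA rat, the HF rats lay at 8573 to 17479 CPM, beside the HFE rats, and the Sham rats lay at 7445 to 7980 CPM, between the interventions. The log2 fold change was -2.08 (SE 0.13, adjusted p = 0.00237, edgeR), which is 4.23-fold lower with BAIBA. The fast myosin Myh6 was at 9127, 11171 and 13299 CPM in the HFE rats and at 12124, 18337 and 18156 CPM in the BAIBA rats. The groups overlapped, since BAIBA rat 1 was below HFE rat 3, and the log2 fold change was 0.53 (SE 0.19, adjusted p = 0.438). On the FPKM scale, which corrects for length, Myh7 was 60.8%, 60.2% and 49.6% of the sum of both myosins in the HFE rats and 20.6%, 16.6% and 16.6% in the BAIBA rats. The groups did not overlap (exact permutation test, two-sided, p = 0.1, the smallest that 3 rats against 3 allow), and the share was 50.4% ± 11.2 (SD, n = 3) in the HF rats and 29.6% ± 1.99 in the Sham rats. Myh6 and Myh7 are near-identical paralogs, and how reads matching both were counted is not given in the sources used here.

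Mir208b lies within the span of Myh7 on chromosome 15 in RefSeq's GRCr8 annotation, and its relative Mir208a lies within Myh6. The mature sequences are shown because the pair of genes share a seed, printed in capitals (bases 2 to 8), in the 3p arms and another in the 5p arms.
rno-miR-208b-3p: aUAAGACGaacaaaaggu
rno-miR-208a-3p: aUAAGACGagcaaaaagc
rno-miR-208b-5p: aAGCUUUUugcucgcguuau
rno-miR-208a-5p: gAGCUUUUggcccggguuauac
The sequences are RefSeq's. The libraries were made from RNA with a poly(A) tail, so reads on Mir208b belong to a longer transcript and do not measure these mature forms. The Mir208b gene was at 2.06, 2.42 and 2.98 CPM in the HFE rats and at 6.80, 5.77 and 4.76 CPM in the BAIBA rats. All BAIBA rats were above all HFE rats while Myh7 was the other way round, and the log2 fold change of 1.22 (SE 0.24) had an adjusted p of 0.164 in edgeR and 0.0156 in DESeq2. The HF rats had 1.22 to 2.21 CPM and the Sham rats 2.94 to 5.83 CPM.

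The rest of the sarcomere, the force-producing unit of the muscle cell, lay on the same side as Myh7. Of 21 sarcomere genes tested, 20 had a log2 fold change below 0, with a median of -0.27 against 0.00 over all genes. Myh7 passed the adjusted p, 9 genes including it were lower and 1 was higher at an unadjusted p under 0.05, and 10 were lower without overlap between the groups, where 4.88% and 8.37% of all genes were lower by these measures. Cardiac actin, Actc1, was at 8100, 8657 and 8439 CPM in the HFE rats and at 6184, 5286 and 5153 CPM in the BAIBA rats. The groups were well apart, with a log2 fold change of -0.60 (SE 0.10, adjusted p = 0.131, edgeR). The slow-tonic myosin Myh7b had a log2 fold change of -0.45 (SE 0.09, adjusted p = 0.156), and the ventricular light chain Myl2 one of -0.33 (SE 0.11, adjusted p = 0.367). With library-size scaling alone, 5 sarcomere genes were lower at an unadjusted p under 0.05 and the median was -0.21.

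Of 17 genes of hypertrophy and wall stress, Myh7 again included, 15 were below 0, with a median of -0.34 and 6 lower at an unadjusted p under 0.05 (4.88% of all genes). Without BAIBA rat 1 the median was -0.62 and 9 were lower, and without BAIBA rat 2 the median was -0.24 and 6 of the 17 were above 0. Nppb, which encodes the B-type natriuretic peptide, was at 195, 202 and 340 CPM in the HFE rats and at 109, 36.1 and 83.2 CPM in the BAIBA rats. The groups did not overlap, and the log2 fold change was -1.69 (SE 0.45, adjusted p = 0.302, edgeR). Rcan1, a calcineurin-responsive gene, had a log2 fold change of -1.14 (SE 0.31, adjusted p = 0.292). Without BAIBA rat 1 its log2 fold change was -1.54 with an adjusted p of 0.0416. The LIM protein gene Fhl2 had a log2 fold change of -0.60 (SE 0.10, adjusted p = 0.131). The A-type peptide Nppa ranged from 10.4 to 212 CPM within the BAIBA group and could not be separated (log2 fold change -0.37, SE 1.42, adjusted p = 0.968).

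Among 22 transcription factors of the heart lineage, 2 fell with BAIBA at the adjusted p (0.0876% of all genes). Neither passed when any one of the HFE rats, BAIBA rat 2 or BAIBA rat 3 was left out, or with library-size scaling alone. Irx5, an Iroquois factor known to shape the gradient of repolarization across the ventricular wall, was at 19.2, 16.2 and 13.6 CPM in the HFE rats and at 3.90, 3.72 and 1.87 CPM in the BAIBA rats. The BAIBA rats were also below all HF rats (5.10 to 15.5 CPM) and all Sham rats (8.86 to 16.8 CPM). The log2 fold change was -2.36 (SE 0.29, adjusted p = 0.0465, edgeR). Its neighbour in the family, Irx3, which is active in the conduction system, was at 23.2, 12.7 and 14.8 CPM in the HFE rats and at 2.40, 4.94 and 1.21 CPM in the BAIBA rats. No BAIBA rat reached the lowest HFE rat, but the spread was wider (log2 fold change -2.57, SE 0.49, adjusted p = 0.174).

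Myocd encodes myocardin, the coactivator of serum response factor in cardiac and smooth muscle. Its level was 48.7, 54.0 and 56.1 CPM in the HFE rats and 29.9, 28.2 and 28.3 CPM in the BAIBA rats. BAIBA rats were below all HF and Sham rats as well, and the log2 fold change was -0.87 (SE 0.10, adjusted p = 0.0291, edgeR). Srf itself had a log2 fold change of -0.88 (SE 0.27, adjusted p = 0.353), but HFE rat 3, at 143 CPM, was far above the other HFE rats (80.9 and 79.5 CPM). Gata4 had a log2 fold change of -0.45 (SE 0.11, adjusted p = 0.202). Of the other factors, Hand2 was on the higher side at 0.55 (SE 0.14, adjusted p = 0.229). Over the 22 factors, 13 were below 0 and 9 above.

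Ion transport held a pair of further calls. Slc41a3, a magnesium transporter, was at 80.5, 74.1 and 57.9 CPM in the HFE rats and at 24.9, 26.0 and 29.2 CPM in the BAIBA rats. All BAIBA rats were below every HF and Sham rat, and the log2 fold change was -1.40 (SE 0.14, adjusted p = 0.0284, edgeR). Of the 12 magnesium transporters tested it alone had an unadjusted p under 0.05, or 8.33% against 9.57% of all genes. The list divided into 6 above and 6 below 0. Atp2b2, a calcium pump of the plasma membrane, was at 33.2, 29.2 and 35.8 CPM in the HFE rats and at 15.6, 11.9 and 12.8 CPM in the BAIBA rats. The HFE rats were above all HF rats (14.0 to 25.0 CPM), and the log2 fold change was -1.28 (SE 0.14, adjusted p = 0.0291). Slc41a3 did not pass the adjusted p without HFE rat 1 or 2, or without BAIBA rat 2 or 3. Atp2b2 did not pass without any one of the HFE rats, without BAIBA rat 2 or 3, or with library-size scaling.

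In the list of calcium handling, no gene of 25 tested passed the adjusted p in edgeR. In DESeq2, 2 passed on the lower side, Asph and Casq2 (adjusted p = 0.000361 and 0.0450), where 162 of all 23294 genes did. At an unadjusted p under 0.05 in edgeR, 3 were lower and 0 higher, or 12% against 9.57% of all genes, and without BAIBA rat 1 it was 5 lower. The 3 were Asph (-0.49, SE 0.08), Casq2, the calcium store protein of the sarcoplasmic reticulum (-0.34, SE 0.09), and Slc8a1, the sodium-calcium exchanger (-0.35, SE 0.15), all as log2 fold changes. Gja1, the main gap junction gene of the working ventricle, was at 612, 603 and 586 CPM in the HFE rats and at 440, 358 and 330 CPM in the BAIBA rats. Here the HFE rats stood out above all HF and Sham rats, and the log2 fold change was -0.67 (SE 0.12, adjusted p = 0.131, edgeR). The pacemaker channel Hcn4 was at 137, 79.3 and 51.0 CPM in the HFE rats and at 7.58, 17.3 and 3.14 CPM in the BAIBA rats. The groups did not overlap, but HF rats ranged from 9.29 to 89.8 CPM and the log2 fold change of -3.26 (SE 0.72) had an adjusted p of 0.257 in edgeR and 0.00293 in DESeq2. Of 10 conduction genes, 3 were lower and 1, Cntn2, was higher at an unadjusted p under 0.05 (4.88% and 4.68% of all genes).

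The endothelial transcription factor Bcl6b had the smallest p after Myh7. It was at 84.2, 89.6 and 93.6 CPM in the HFE rats and at 29.9, 34.6 and 30.5 CPM in the BAIBA rats. The HFE rats lay above every HF rat (33.3 to 52.9 CPM) and every Sham rat (32.0 to 53.8 CPM), whereas the BAIBA rats overlapped both. The log2 fold change was -1.49 (SE 0.10, adjusted p = 0.00237, edgeR), or 2.81-fold lower with BAIBA. Myh7 and Bcl6b passed the adjusted p in the main fit, with the replicate block, in DESeq2 and in a fit of all 12 rats (adjusted p = 0.00975 and 0.0454 in the last), as did a gene without a symbol.

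Of 33 endothelial genes, 24 were below 0 with a median of -0.19. At an unadjusted p under 0.05, 8, Bcl6b included, were lower and 0 higher (4.88% and 4.68% of all genes). Without BAIBA rat 1 the median was -0.04, 15 of the 33 were above 0, and 4 were lower and 2 higher at an unadjusted p under 0.05, and without BAIBA rat 3 it was 4 lower and 0 higher. Vegfa, the main angiogenic ligand, was at 1088, 1106 and 1192 CPM in the HFE rats and at 813, 999 and 855 CPM in the BAIBA rats. The HFE rats were also above all HF and Sham rats, and the log2 fold change was -0.34 (SE 0.10, adjusted p = 0.302, edgeR). Of 14 ligands and receptors of the VEGF and angiopoietin families, 6 were lower and 1 higher at an unadjusted p under 0.05 (4.88% and 4.68% of all genes). Among the 6 was the receptor Tie1 (log2 fold change -0.42, SE 0.11). Without HFE rat 2 the counts were 3 lower and 0 higher. In the basement membrane list, 9 of 11 genes were below 0. Col4a2, a chain of its collagen IV network, was at 224, 256 and 236 CPM in the HFE rats and 124, 152 and 161 CPM in the BAIBA rats. The groups were apart, with a log2 fold change of -0.71 (SE 0.12, adjusted p = 0.117, edgeR, and 0.0487 with the replicate block).

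**Figure D3:**
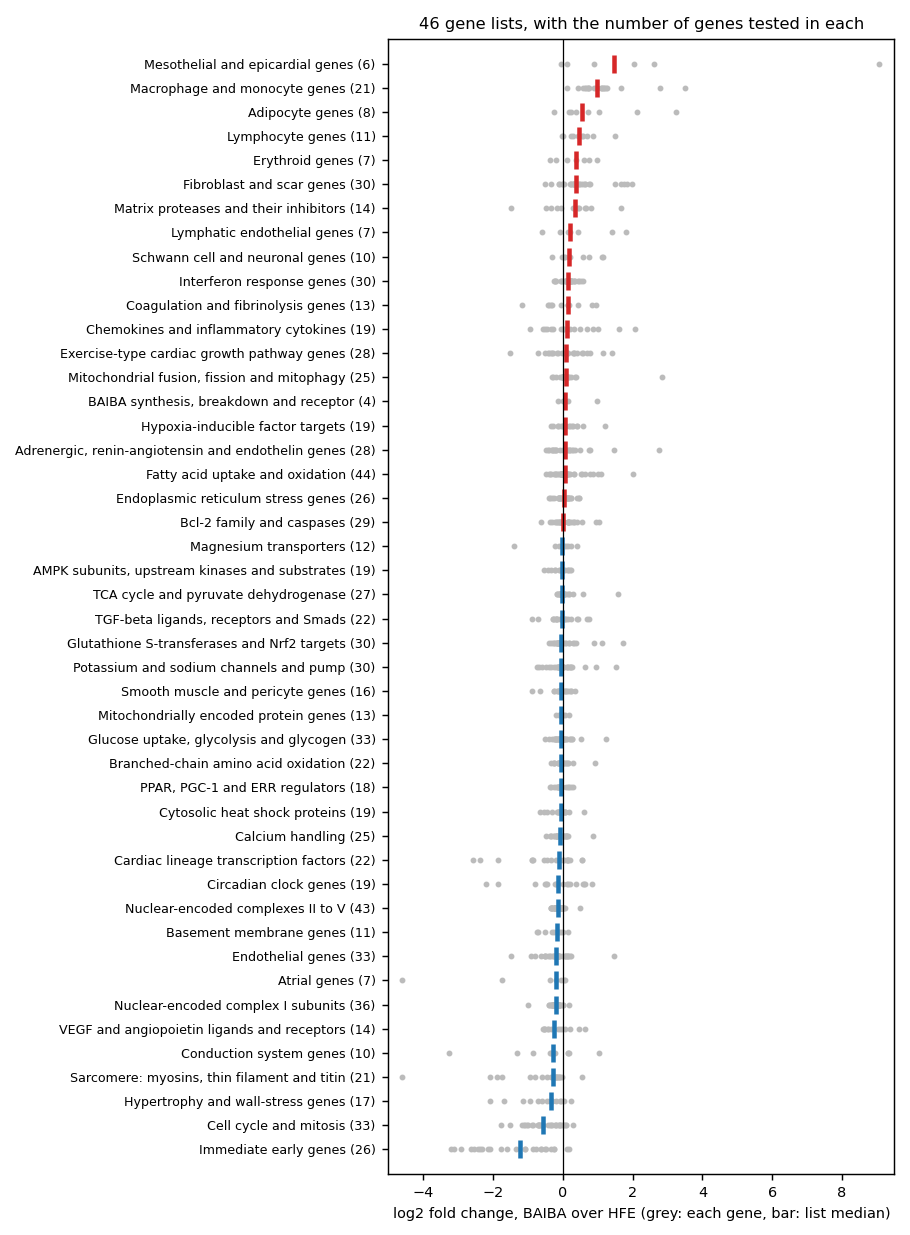
Log2 fold changes of BAIBA over HFE for the members of 46 gene lists (grey points, 1 a gene) and the median of each list (bar, red above 0 and blue below). Medians run from -1.22 for immediate early genes, which rest on HFE rat 3, to 1.46 for mesothelial and epicardial genes.

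The cell cycle list was mostly on the lower side with BAIBA. Cenpf, a kinetochore protein of dividing cells, was at 5.26, 5.95 and 5.51 CPM in the HFE rats and at 1.84, 1.35 and 1.63 CPM in the BAIBA rats. The groups did not overlap and BAIBA was below all Sham rats too. The log2 fold change was -1.78 (SE 0.23, adjusted p = 0.0493, edgeR, and 0.0513 with the replicate block). Of 33 cell cycle genes, 28 were below 0 with a median of -0.56, 9 were lower and 0 higher at an unadjusted p under 0.05, and 16 were lower without overlap, against 4.88% and 8.37% of all genes. Without BAIBA rat 3, 5 were lower at that p. Cenpf did not pass the adjusted p without any one of the HFE rats, without BAIBA rat 2 or 3, or with library-size scaling. The topoisomerase Top2a had a log2 fold change of -1.04 (SE 0.21, adjusted p = 0.174) and the proliferation marker Mki67 one of -0.90 (SE 0.26, adjusted p = 0.279). Levels were low. Summed over the 38 cell cycle genes counted, CPM was 155 to 161 in the HFE rats and 114 to 136 in the BAIBA rats. HF rat 1, at 430 CPM, was far above both.

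Many cell cycle promoters carry the CHR element, which is known to bind a repressor complex of quiescent cells. The Cenpf promoter, 250 bases before to 50 after the start of the gene, on the minus strand of chr13:103760837-103761136 (GRCr8, RefSeq), is shown with its single TTTGAA in capitals.
Cenpf promoter: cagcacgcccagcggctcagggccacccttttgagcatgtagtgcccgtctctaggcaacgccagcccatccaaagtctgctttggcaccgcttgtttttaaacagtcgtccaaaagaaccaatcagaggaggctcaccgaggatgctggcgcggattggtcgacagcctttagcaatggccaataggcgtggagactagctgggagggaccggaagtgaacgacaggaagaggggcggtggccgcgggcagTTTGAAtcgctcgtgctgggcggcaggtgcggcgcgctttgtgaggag
With both strands searched, TTTGAA was in the promoters of 14 of the 27 tested cell cycle genes that had a promoter in the table (51.9%), against 4962 of 27457 promoters of all genes (18.1%). CATTCC, the MCAT element, was in 6 of 17 sarcomere promoters (35.3%, against 13.9% of all), and CACGTG, the E-box, in 4 of 16 clock gene promoters (25%, against 6.65% of all). Of the 12 named genes past the adjusted p, 9 had a promoter in the table. A match of letters is a description of the window and was not tested as a site.

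Of the genes higher with BAIBA at edgeR's adjusted p, 2 had a symbol. Gstt3, a glutathione S-transferase, was at 2.73, 2.42 and 2.09 CPM in the HFE rats and at 8.48, 7.18 and 8.20 CPM in the BAIBA rats. The BAIBA rats were above all HF rats (2.01 to 6.08 CPM) and all Sham rats (3.28 to 5.25 CPM). The log2 fold change was 1.72 (SE 0.20, adjusted p = 0.0374, edgeR), or 3.30-fold higher. Selenop, which carries selenium in plasma, was at 164, 169 and 162 CPM in the HFE rats and at 251, 266 and 288 CPM in the BAIBA rats. Here the HFE rats were below all HF rats (177 to 273 CPM), and the log2 fold change was 0.70 (SE 0.09, adjusted p = 0.0483). Neither Gstt3 nor Selenop passed when any one of the HFE rats, BAIBA rat 2 or BAIBA rat 3 was left out. With library-size scaling alone both had an adjusted p of 0.0513 (edgeR). In a fit of only the genes with a symbol, Selenop, Lims2, Cenpf and G0s2 had an adjusted p of 0.0536 (edgeR) and did not pass.

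Of 30 glutathione S-transferases and Nrf2 targets, 20 were below 0, and 3 were higher and 2 lower at an unadjusted p under 0.05 (4.68% and 4.88% of all genes). With library-size scaling alone, or without BAIBA rat 2, 16 were above 0. The plasma glutathione peroxidase Gpx3 was at 173, 112 and 141 CPM in the HFE rats and 292, 218 and 274 CPM in the BAIBA rats. The groups did not overlap, with a log2 fold change of 0.89 (SE 0.18, adjusted p = 0.174, edgeR, and 0.0241 with the replicate block). Heme oxygenase, Hmox1, had a log2 fold change of 1.12 (SE 0.26, adjusted p = 0.188).

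Fkbp5 and Ddit4, both known as glucocorticoid-inducible genes, passed the adjusted p with the block and not without it. Fkbp5 was at 24.2, 20.8 and 36.1 CPM in the HFE rats and at 54.3, 69.2 and 73.2 CPM in the BAIBA rats, a log2 fold change of 1.28 (SE 0.21, adjusted p = 0.131, edgeR, and 0.0428 with the replicate block). Ddit4, an inhibitor of mTOR signalling, was at 14.3, 22.6 and 23.3 CPM in the HFE rats and at 36.5, 48.9 and 52.7 CPM in the BAIBA rats, a log2 fold change of 1.20 (SE 0.21, adjusted p = 0.136, and 0.0133 with the block). All BAIBA rats were above all HFE rats for both genes, and the HF rats lay at 37.8 to 64.7 CPM for Fkbp5 and 17.7 to 47.6 CPM for Ddit4. Dusp5, a phosphatase of ERK, lay just outside the threshold on the lower side, at 19.4, 19.5 and 15.1 CPM in the HFE rats and 6.02, 8.47 and 6.87 CPM in the BAIBA rats (log2 fold change -1.34, SE 0.18, adjusted p = 0.0598, edgeR, and 0.0428 with the block). G0s2, an inhibitor of the lipase ATGL, lay just inside it, at 28.0, 27.1 and 23.8 CPM against 13.8, 11.4 and 13.8 CPM (log2 fold change -1.02, SE 0.13, adjusted p = 0.0493). The remaining named calls were both lower with BAIBA and under the fold limit: Lrrc4b, a synaptic adhesion gene (-0.87, SE 0.09, adjusted p = 0.0291), and Lims2, a focal adhesion gene (-0.74, SE 0.09, adjusted p = 0.0483). G0s2 and Lims2 did not pass when any one rat was left out, and Lrrc4b then passed only without BAIBA rat 1. With library-size scaling alone, G0s2, Lims2 and Lrrc4b did not pass.

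**Figure D4:**
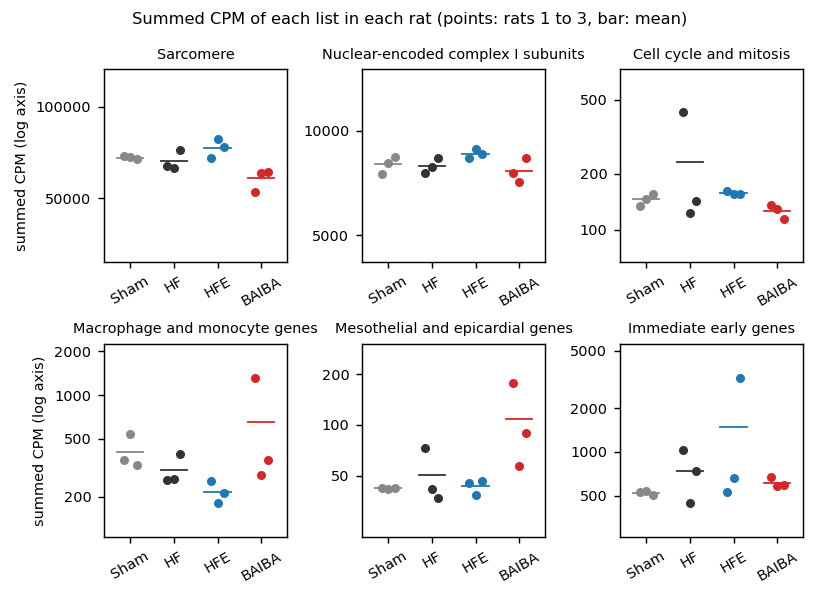
Summed CPM on a log axis over the members of 6 gene lists, with 1 point for each of 3 rats and a bar at the mean in each group. BAIBA rat 1 is the high point for macrophage and monocyte genes (1318 CPM), and HFE rat 3 is the high point for immediate early genes (3262 CPM).

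The macrophage list lay on the higher side with BAIBA against HFE, and no gene of it passed the adjusted p. Its summed level was 181 to 259 CPM in the HFE rats, below every HF rat (260 to 391 CPM) and every Sham rat (330 to 538 CPM). BAIBA rat 1, at 1318 CPM, was above all of these. The other BAIBA rats, at 283 and 360 CPM, lay within the HF range and not above the Sham range. All 21 macrophage and monocyte genes tested had a log2 fold change above 0, with a median of 0.99. Of them, 10 had an unadjusted p under 0.05 and 7 did not overlap, where 4.68% and 7.13% of all genes were higher by these measures. In edgeR 0 passed the adjusted p and in DESeq2 7 did, where 164 of all 23294 genes were higher. Without BAIBA rat 1 the median was 0.38, 19 of 21 were above 0 and 7 had an unadjusted p under 0.05. That number was 5 without HFE rat 2 and 18 without BAIBA rat 2. Cd163, the haemoglobin scavenger receptor of resident macrophages, was at 9.32, 8.24 and 13.7 CPM in the HFE rats and at 26.8, 23.0 and 24.8 CPM in the BAIBA rats. The BAIBA rats were evenly high, and the log2 fold change was 1.25 (SE 0.19, adjusted p = 0.0986, edgeR, and 0.0487 with the replicate block). The mannose receptor Mrc1 was at 17.1, 14.1 and 16.8 CPM in the HFE rats and 51.6, 22.3 and 33.6 CPM in the BAIBA rats (log2 fold change 1.17, SE 0.29, adjusted p = 0.248). The lysozyme Lyz2 was set by 1 library, at 758 CPM in BAIBA rat 1 against 57.5 and 61.5 CPM in the others and 34.4 to 57.9 CPM in the HFE rats. Lyve1, a receptor of lymphatic endothelium and of some macrophages, had a log2 fold change of 1.41 (SE 0.36, adjusted p = 0.263, and 0.0487 with the block). Of 11 lymphocyte genes, 10 were above 0 with a median of 0.47. At an unadjusted p under 0.05, 0 passed in edgeR and 1 in DESeq2, where 796 of all 23294 genes were higher. Without BAIBA rat 1 the median was 0.13 and 8 were above 0.

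Mesothelial and epicardial genes were also highest in BAIBA rat 1. Their summed level was 38.5 to 46.4 CPM in the HFE rats, 41.8 to 42.2 CPM in the Sham rats, 37.0 to 72.6 CPM in the HF rats, and 177, 56.9 and 89.2 CPM in BAIBA rats 1, 2 and 3. HF rat 1 was above BAIBA rat 2, so the HF and BAIBA groups overlapped. Of the 13 genes of the list that were counted, 6 were abundant enough to test, Msln only through the BAIBA rats, so the counts that follow were favoured by the filter. Of the 6, 5 were above 0 with a median of 1.46, and 4 were higher at an unadjusted p under 0.05 (4.68% of all genes), with and without BAIBA rat 1. Msln, the defining mesothelial antigen, was at 36.1, 1.03 and 10.3 CPM in the BAIBA rats and at 0.0666, 0 and 0 CPM in the HFE rats. Aldh1a2, a retinoic acid enzyme of the epicardium, was at 1.60, 1.32 and 2.03 CPM in the HFE rats and at 9.76, 4.36 and 6.09 CPM in the BAIBA rats (log2 fold change 2.03, SE 0.35, adjusted p = 0.131). The epicardial factor Wt1 had a log2 fold change of -0.06 (SE 0.14, adjusted p = 0.929). The part that tissue of the surface of the heart has in the other differences was not tested.

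Scar and fibroblast genes did not pass the adjusted p. Of 30 tested, 24 were above 0 with a median of 0.36, and 4 were higher at an unadjusted p under 0.05. That is 13.3% in either direction against 9.57% of all genes, and 13.3% did not overlap against 15.5% of all genes. With the replicate block 11 were higher and 1 lower at that p, and without BAIBA rat 1 the median was 0.03, with 2 higher and 3 lower. It was 7 higher without HFE rat 1, 1 without HFE rat 2, 2 without HFE rat 3 and 10 without BAIBA rat 2. Timp3 and Igf1 are not members of this list. Of 14 matrix proteases and their inhibitors, 4 were higher and 1 lower at that p (2 and 1 without HFE rat 3). Of 28 genes of exercise-type cardiac growth, 3 were higher and 3 lower (4.68% and 4.88% of all genes). The inhibitor of matrix proteases Timp3 was at 104, 101 and 129 CPM in the HFE rats and at 148, 202 and 164 CPM in the BAIBA rats (log2 fold change 0.63, SE 0.14, adjusted p = 0.189, edgeR). The growth factor Igf1 was at 32.6, 24.2 and 28.5 CPM in the HFE rats and at 90.5, 38.4 and 94.9 CPM in the BAIBA rats (log2 fold change 1.39, SE 0.35, adjusted p = 0.263), and all BAIBA rats were above all HFE rats. Among 7 erythroid genes 3 were higher at an unadjusted p under 0.05 (4.68% of all genes). Summed over the 11 erythroid genes counted, the HFE rats had 727 to 837 CPM and the BAIBA rats 913 to 1313 CPM. Blood left in the tissue was not measured. Of 8 adipocyte genes 7 were above 0 with a median of 0.54, and 3 were higher at that p (4.68% of all genes). It was 1 without HFE rat 2, HFE rat 3 or BAIBA rat 3, and without BAIBA rat 3 the median was 0.17.

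**Figure D5:**
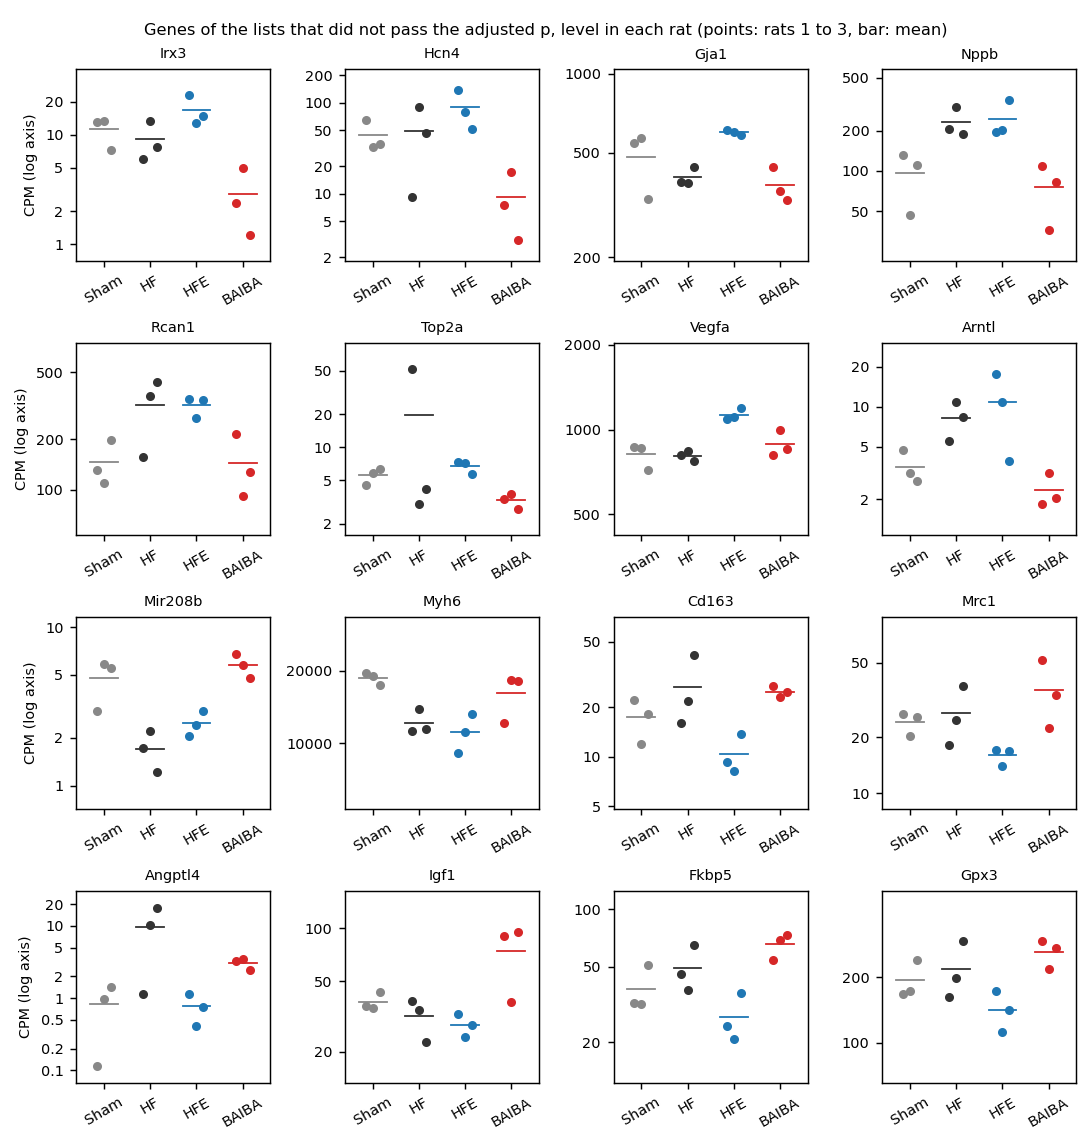
Levels in CPM on a log axis of 16 genes that the text describes and that did not pass the adjusted p, with 1 point for each of 3 rats and a bar at the group mean (Sham, HF, HFE, BAIBA). Irx3, Hcn4, Gja1 and Vegfa are lower in every BAIBA rat than in every HFE rat, and Mir208b, Cd163, Igf1, Fkbp5 and Gpx3 are higher.

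Energy metabolism, on which the study's question centres, held no gene past edgeR's adjusted p in the lists of the respiratory chain and of fatty acid oxidation. In DESeq2, 2 fatty acid genes were higher and 2 lower at the adjusted p, where 164 and 162 of all 23294 genes were. Of 36 nuclear-encoded subunits of respiratory complex I, 34 were below 0, with a median of -0.21, 9 were lower at an unadjusted p under 0.05 and 20 were lower without overlap (4.88% and 8.37% of all genes), and 0 passed the adjusted p in edgeR or DESeq2. With library-size scaling alone the median was -0.15 and 2 were lower at that p, and the number was 3 without any one of the HFE rats, 4 without BAIBA rat 2 and 14 without BAIBA rat 3. The summed level of the complex I subunits was 8344 to 8859 CPM in the HFE rats, above all HF rats (7551 to 8325 CPM). In the BAIBA rats it was 7126 to 8339 CPM, overlapping the HF rats. The Sham rats (7517 to 8410 CPM) overlapped both interventions. Complexes II to V had a median of -0.13 over 43 genes, of which 38 were below 0. Of the 43, 17 were lower without overlap and 0 higher, or 39.5% against 15.5% of all genes. At an unadjusted p under 0.05, 5 were lower and 0 higher, or 11.6% against 9.57% of all genes. It was 10 lower without BAIBA rat 3, 1 without HFE rat 2, 2 without HFE rat 3, 3 without HFE rat 1 or BAIBA rat 2, and 2 with library-size scaling. The 13 mitochondrially encoded genes had a median of -0.04 with 0 at an unadjusted p under 0.05. Among 44 genes of fatty acid uptake and oxidation, with a median of 0.05, 8 were higher and 3 lower at an unadjusted p under 0.05 (4.68% and 4.88% of all genes). Without HFE rat 2 or without BAIBA rat 1 it was 5 and 2. Angptl4, a PPAR target that inhibits lipoprotein lipase, was at 1.13, 0.415 and 0.760 CPM in the HFE rats and at 3.29, 3.53 and 2.47 CPM in the BAIBA rats. The BAIBA rats were all higher, but 2 HF rats were at 10.4 and 17.8 CPM, and the log2 fold change was 2.00 (SE 0.39, adjusted p = 0.156 in edgeR and 0.00709 in DESeq2). Cpt1a, which admits fatty acids to mitochondria, had a log2 fold change of 0.52 (SE 0.15, adjusted p = 0.278). On the other side, the electron transfer subunit Etfb had one of -0.48 (SE 0.09, adjusted p = 0.156 in edgeR and 0.00193 in DESeq2).

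No AMPK gene passed the adjusted p. The catalytic subunit genes Prkaa1 and Prkaa2 had log2 fold changes of -0.02 (SE 0.11) and -0.03 (SE 0.58), the wide error of Prkaa2 going with levels of 15.6 to 43.4 CPM in the HFE rats and 10.7 to 39.3 CPM in the BAIBA rats. The coactivator Ppargc1a was at -0.04 (SE 0.21) and Cpt1b, the muscle form of carnitine palmitoyltransferase, at -0.07 (SE 0.11). The regulatory subunit Prkag2 had a log2 fold change of -0.55 (SE 0.14, adjusted p = 0.237, edgeR). Of 19 AMPK genes 3 were lower and 0 higher at an unadjusted p under 0.05, or 15.8% against 9.57% of all genes. The survival gene Bcl2 was at 5.59, 6.02 and 6.77 CPM in the HFE rats and at 3.23, 4.49 and 4.28 CPM in the BAIBA rats, without overlap (log2 fold change -0.61, SE 0.21, adjusted p = 0.378). Of the genes of BAIBA synthesis and breakdown, 4 of 9 were abundant enough to test. Dpyd, the first enzyme of pyrimidine breakdown, had a log2 fold change of 0.97 (SE 0.34, adjusted p = 0.403).

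The circadian clock genes were spread among the exercised rats. Arntl, which encodes the activator BMAL1, was at 17.7, 10.9 and 3.86 CPM in the HFE rats and at 1.84, 3.14 and 2.05 CPM in the BAIBA rats, and its partner Npas2 was at 15, 11.7 and 4.62 CPM against 3.23, 2.57 and 2.77 CPM. HFE rat 3 was the lowest HFE rat for both, and the log2 fold changes were -2.21 (SE 0.55, adjusted p = 0.250, edgeR) and -1.86 (SE 0.41, adjusted p = 0.189). The repressor Nr1d1 was at 100.2, 79.1 and 89.5 CPM in the HFE rats and 59.6, 43.6 and 52.0 CPM in the BAIBA rats (log2 fold change -0.79, SE 0.14, adjusted p = 0.131, and 0.0334 with the block), while Cry1 was on the higher side at 0.59 (SE 0.13, adjusted p = 0.176). Of 19 clock genes 4 were lower and 2 higher at an unadjusted p under 0.05 (4.88% and 4.68% of all genes), and without HFE rat 3 it was 4 and 6. The time of day at which hearts were taken is not given in the sources used here.

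Immediate early genes show how 1 rat can set a list. Of 26 genes, 24 were below 0 with a median of -1.22, the lowest of all lists. At an unadjusted p under 0.05, 2 were lower and 0 higher (7.69%, against 9.57% of all genes). Without overlap, 6 were lower and 0 higher (23.1%, against 15.5% of all genes). Without HFE rat 3 the median was 0.16 and 15 were above 0. At that p, 5 were then lower and 3 higher, where 600 and 656 of all 15243 genes were. Egr1 was at 27.2, 31.1 and 270 CPM in the HFE rats and at 17.2, 12.2 and 13.9 CPM in the BAIBA rats (log2 fold change -2.91, SE 1.09, adjusted p = 0.510, edgeR). Of 19 cytosolic heat shock genes, 13 were below 0 with a median of -0.06. At an unadjusted p under 0.05, 3 were lower and 1 higher (4.88% and 4.68% of all genes), and 26.3% did not overlap against 15.5% of all genes. The 3 lower genes encode small heat shock proteins. Hspb6 was at 1293, 1361 and 1377 CPM in the HFE rats and at 988, 1008 and 964 CPM in the BAIBA rats (log2 fold change -0.44, SE 0.08, adjusted p = 0.136), and Hspb1 and Cryab had log2 fold changes of -0.53 (SE 0.11, adjusted p = 0.174) and -0.31 (SE 0.09, adjusted p = 0.291). The chaperone Hspa5 of the endoplasmic reticulum had one of -0.41 (SE 0.10, adjusted p = 0.229).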

How the data were processed

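RNA of the left ventricle was measured in 12 rats, of which the 3 HFE and 3 BAIBA rats were compared and the HF and Sham rats gave reference levels. The submitters' processing notes name HISAT2, StringTie, Subread, featureCounts and DESeq2, with mm9 as the genome build, although the gene identifiers are those of rat. Tool versions and the use of strand in counting are not given in the sources used here. The deposited values are whole-number counts per gene, without normalization by the authors. The authors also deposited FPKM values made from these counts. A further deposited table held the same values, and its symbols named the genes.

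Counts were tested in R 4.3.3 with edgeR 4.0.16 (TMM normalization, filterByExpr, robust quasi-likelihood fits on the 6 rats, no covariate). Adjusted p-values are Benjamini-Hochberg values over the 14844 genes tested, from edgeR where no other tool is named. SE was obtained by dividing each log2 fold change by the root of its F statistic. CPM used TMM factors over all 12 rats, and no column of values was without a sample. Single values were compared by an exact permutation test over 20 assignments of the 6 rats. Replicates differed by a chi-square per degree of freedom of 11.8 to 33.7, so none was a copy of another.

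The members and the 46 gene lists were chosen with earlier results of these data known, and no set test was run. Genes were named by a rule: every named gene past a threshold, those with the smallest p on each side, cell type markers, up to 4 further members of each list with the smallest p, and genes the study measured as protein. Cpt1a and Srf were named after their values were seen. Deviations from the group means correlated between same-numbered HFE and BAIBA rats (r = 0.195, 0.261 and 0.138). For different numbers r was -0.171 to -0.0275. Such deviations cancel out within a group, so positive values for some pairs force negative ones for others, and the pattern was not tested. A fit with the replicate number as a block is given where it changed a call. The labels give the numbers, and each number stands for another animal in each group. Alternatives were DESeq2 1.42.0, RLE and library-size scaling, other filters, a fit of all 12 rats, limma 3.58.1 on FPKM, each rat left out in turn, subsets of genes, and an unadjusted p. Genes without a symbol were counted and not named. Some genes fixed in the naming rule are not reported here.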

Additional observations from a re-analysis of the deposited data

How the results depend on the processing

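The counts of DEGs, 2 higher and 10 lower with BAIBA, depended on the settings. DESeq2 gave 104 higher and 67 lower, no filter beyond 1 count 10 and 20, the replicate block 17 and 15, library-size scaling alone 1 and 6, the fit of all 12 rats 0 and 3, limma on log2(FPKM + 1) 0 and 2, limma on log2(FPKM + 0.1) 1 and 2, the genes with an Ensembl identifier, which are also those with a symbol, 1 and 5, and an unadjusted p with the same fold limit 221 and 151. Leaving out each rat in turn gave 0 to 8 higher and 3 to 14 lower. Of the genes past the adjusted p alone (3 higher, 13 lower), DESeq2 gave 164 and 162, no filter 14 and 36, the block 25 and 25, library-size scaling 1 and 6, all 12 rats 0 and 3, limma 0 and 2 or 1 and 2, and Ensembl genes 1 and 7, and leaving out a rat gave 0 to 10 higher and 3 to 18 lower. RLE scaling changed none of these counts, and at least 10 counts in every library gave 2 higher and 8 lower DEGs. The first principal component held 29.9% over all genes tested, 23.1% over all 12 rats and 35.0% to 44.5% when a rat was left out. Msln, which passed the filter on low counts only through the BAIBA rats, also passed the adjusted p with the block. Apart from Msln, the block changed no other call of a gene named in the report than those given there. The cause of these changes was not tested, except that fits without a rat have fewer samples. Log2 fold changes near 0 changed sign. With library-size scaling they were 0.0398 for Prkaa1, 0.014 for Prkaa2, 0.0521 for Acadl and 0.0045 for Ppargc1a. In the limma fits with pseudocounts of 1 and 0.1 they were 0.0362 and 0.0417 for Prkaa1 and 0.0468 and 0.0469 for Acadl. When a rat was left out they ranged from -0.18 to 0.17 for Dnm1l, -0.0722 to 0.23 for Acacb, -0.078 to 0.0487 for Prkaa1, -0.41 to 0.47 for Prkaa2, -0.0868 to 0.0499 for Acadl, -0.14 to 0.00988 for Cpt1b, -0.21 to 0.17 for Ppargc1a, -0.33 to 0.00977 for Bax, -0.0073 to 0.12 for Sucla2 and -0.0752 to 0.23 for Opa1. Of 731 values of named genes under an alternative, 563 kept their direction and their side of the threshold, 99 kept the direction and lost the threshold, 43 gained it and 26 changed sign. With 3 rats a group, differences within the spread between rats were not detectable.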
